A study of Mus musculus with 23 samples.

Results

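Microglia taken from retinas at day 7 after ONC were compared with microglia taken from retinas at 4 weeks after IOP elevation, both in WT mice. The rule took the 3 WT ONC and the 4 WT IOP libraries, which are 7 of the 23 RNA-seq libraries of the study, and the 15655 of 35825 genes that reached 10 normalized counts in 3 or more of those 7. The mice carry GFP in the Cx3cr1 locus, a reporter that marks microglia and other cells of the macrophage lineage. The paper crossed mice heterozygous for this reporter with Spp1 KO animals. The reporter copies behind each library are not given in the sources used here. Live GFP-positive single cells were sorted, by the study's methods, from retinas pooled over several mice of 1 genotype and condition. In the ONC group the optic nerve was crushed behind the globe, an acute injury of the axons of retinal ganglion cells, and in the IOP group microbeads were injected into the anterior chamber, so that pressure stayed raised. The 4 WT libraries labelled control, called naïve here, come from mice of the same reporter line and serve as a reference level. The labels do not say whether those eyes were untouched or had the saline injection that the study's methods give for controls of the pressure model. The remaining 12 libraries come from Spp1 KO; CX3CR1-GFP mice (KO) that were labelled control (naïve) or had either injury (4 each). The study's methods state that animals were matched for age and that both sexes were used equally, but the age, and the number and sex of the mice in each pool, are not given in the sources used here. A legend of the paper for receptor expression in these cells gives 4 mice, while its methods describe pooling. Whether a library is 1 mouse or a pool is therefore not settled here, and libraries are called pools after the methods. The kind of injury and the time since injury differ together between the WT groups, so they cannot be told apart, and p-values measure the spread between libraries.

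Microglia are the resident macrophages of the retina. In an uninjured retina they hold a homeostatic state kept up by TGFβ, CSF1 and purinergic signals, and after neuronal injury they can take up debris through receptors such as TREM2 and AXL, enlarge their lysosomes, divide, present antigen and release cytokines and chemokines. A state found near dying neurons and plaques, often called disease-associated, combines lysosomal, lipid-handling and adhesion genes, and type I interferon, which signals through STAT2 and IRF9 among others, switches on a separate set of antiviral genes. Crushing the nerve injures nearly all ganglion cell axons at once, whereas raised pressure injures them gradually.

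Values are normalized counts, that is, reads per gene scaled by each library's size factor, and fold changes are ONC minus IOP on log2(normalized count + 1), so that a positive value is higher after ONC. A gene was called when the adjusted p of limma was under 0.05 and the log2 fold change was above 0.58 in size. Values in parentheses after "ONC" or "IOP" follow replicates 1 to 3 or 1 to 4. Reads on genes ranged from 22180480 to 27573292 in the ONC libraries and from 23678254 to 26914869 in the IOP libraries.

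Some libraries stood apart from the others of their group. The summed level of 10 microglia markers was 485862 and 539865 in IOP replicates 1 and 4, against 861040 and 862336 in replicates 2 and 3, 790413 to 1297086 after ONC, and 761180 to 998004 in naïve libraries. IOP replicates 1 and 4 also held the highest summed levels of lens markers (220307 and 242153, against 50813 and 34704 in replicates 2 and 3) and of mitochondrial transcripts. ONC replicate 1 had the fewest detected genes (15958), and its genes in the decile of shortest transcripts were at a median of 0.67 above the naïve mean on the log2 scale, while those in the decile of longest transcripts were at -0.72. ONC replicate 2 had a rod marker sum of 558795, against 219261 and 228097 in the other 2. The summed level of 4 Y-linked genes was 159 and 108 in ONC replicates 2 and 3, against 4633 in ONC replicate 1 and 1269 to 4918 in the IOP libraries, and its part in the differences was not tested. The main counts below are also given without ONC replicate 1 and without IOP replicates 1 and 4, and those of further lists follow together. Microglia markers were high throughout, Cx3cr1 at 33361 to 54810.4 after ONC and 26836 to 54612 after IOP elevation, Tmem119 at 29573 to 62260.5 after ONC and 31181 to 60108 after IOP elevation and P2ry12 at 25227 to 47652 after ONC and 31205 to 50359 after IOP elevation, and none of these 3 was called.

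A set of 198 genes moved together among the 12 KO libraries, and their mean level separated the WT groups. The set was built around 5 seed genes (Plbd2, Efhd2, Rala, Akirin1 and Sap30). Members correlated above 0.9 with the seeds once each KO group's mean was subtracted, which takes injury out by construction. Plbd2 is itself among the 10 genes highest after ONC given below. The separation of the WT groups was therefore not tested apart from the choice of seeds. Their mean log2 level lay between 9.91 and 10.4 in the 3 ONC libraries, between 7.15 and 8.78 in the 4 IOP libraries, between 6.85 and 8.47 in naïve WT libraries and anywhere from 7.12 to 10.4 in KO libraries. Of the 198 genes 110 were called higher after ONC and 0 lower, and their median was 2.23. The set holds 6 of the 973 listed genes described below (Aplp1, Atg3, Egr1, Hspa4, Mmp14 and Uvrag). Its part in the differences outside it was not tested beyond a fit with its mean as a covariate, which called 987 genes higher and 954 lower.

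**Figure D1:**
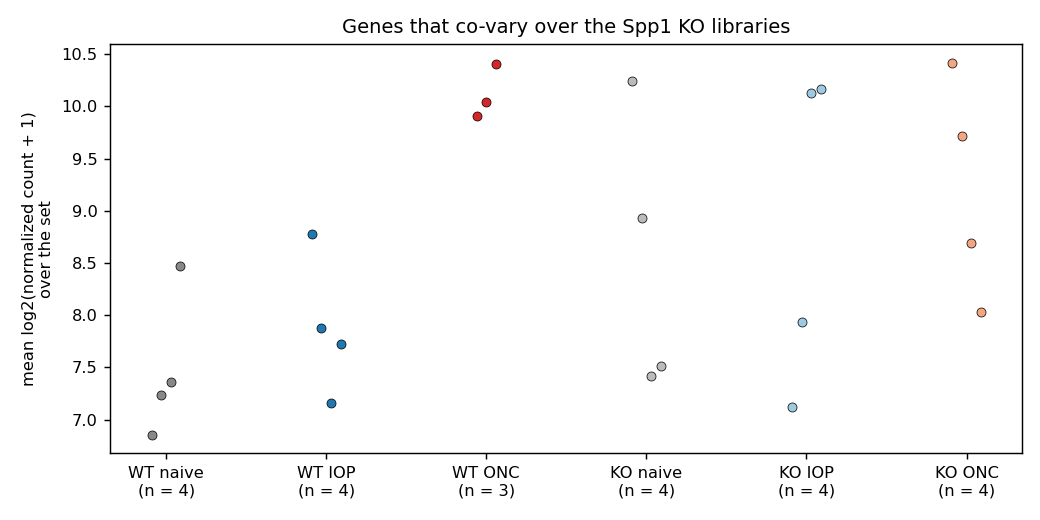
Mean log2(normalized count + 1) of the 198 co-varying genes in each library of the 6 groups; each point is 1 library. The 3 WT ONC libraries sit between 9.91 and 10.4 and the 4 WT IOP libraries between 7.15 and 8.78, while the KO libraries of every group spread from 7.12 to 10.4.

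Of the 15655 genes, 3812 were called (24.4%), 1713 higher after ONC (10.9%) and 2099 lower (13.4%). The difference was over 4-fold for 397 of the genes called higher and for 676 of those called lower. All 3 ONC libraries lay above all 4 IOP libraries for 1846 genes (11.8%) and below them for 1959 (12.5%), and 2629 called genes had groups that did not overlap. Against naïve WT libraries, 3115 genes were called after ONC (19.9%) and 267 after IOP elevation (1.71%). These 2 comparisons share the naïve libraries. The median over all genes was -0.08, and the split of calls depended on the scale: 44.9% of calls were higher as deposited, whereas upper-quartile rescaling gave 1072 higher and 2934 lower (median of all genes -0.31), centring on microglia markers gave 332 higher and 3655 lower (median -0.79), and edgeR on recovered reads gave 1247 higher and 884 lower. Without ONC replicate 1, 589 genes were called higher and 737 lower, and without IOP replicates 1 and 4 together 322 and 432.

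**Figure D2:**
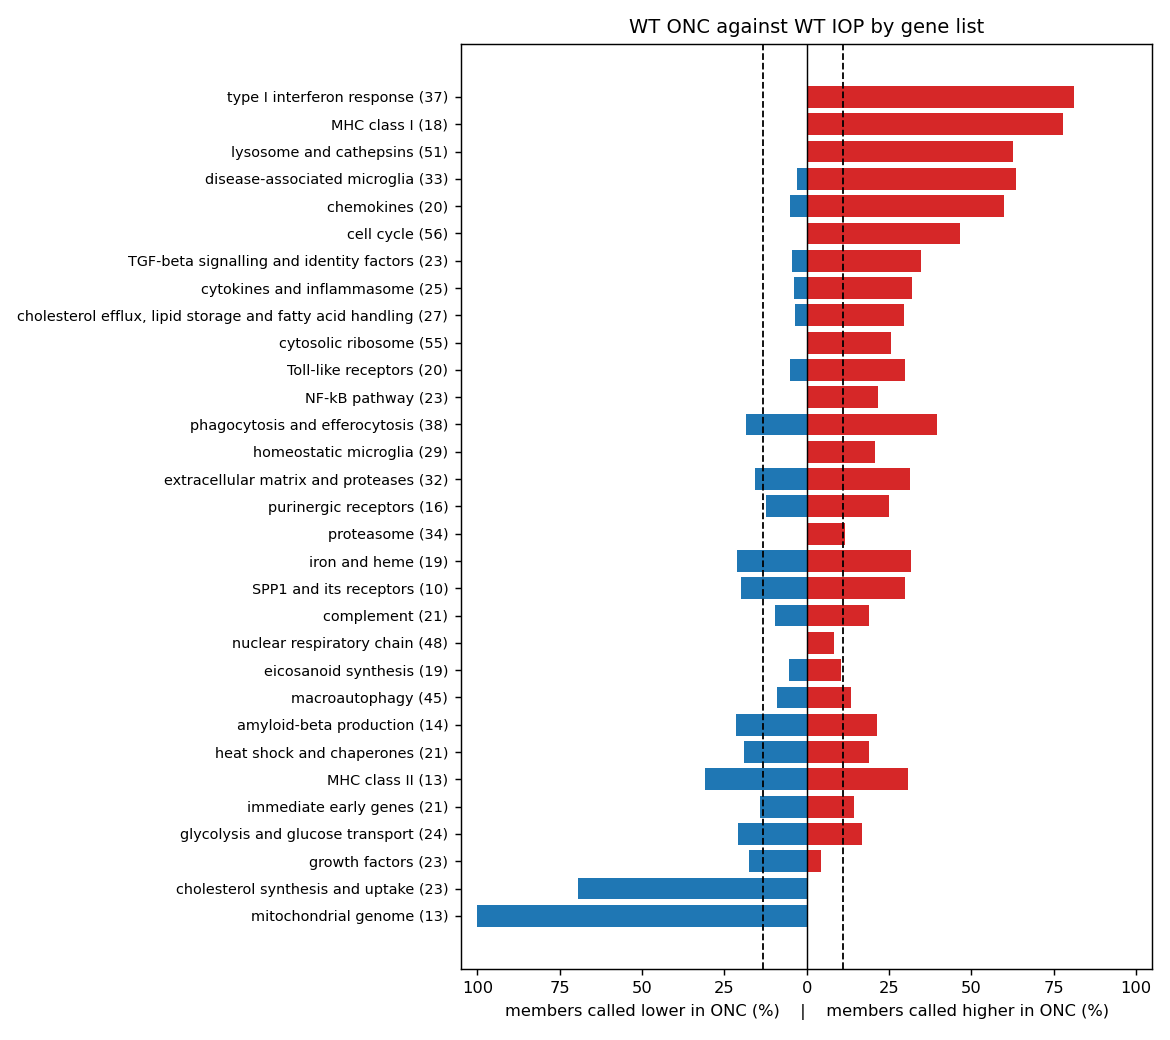
Share of the tested members of each gene list that were called higher (right) or lower (left) after ONC than after IOP elevation in WT microglia, in percent; the dashed lines are the shares over all genes tested, 10.9% higher and 13.4% lower. Interferon response, MHC class I, disease-associated and lysosomal genes extend furthest to the right, and mitochondrial genome and cholesterol synthesis genes furthest to the left; marker lists of other cells are not drawn.

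Genes of the type I interferon response were higher after ONC. Of 37 tested members 30 were called higher and 0 lower, against 10.9% of all genes called higher, and their median log2 fold change was 1.80 against -0.08 over all genes. Without ONC replicate 1 the count was 29, and without IOP replicates 1 and 4 it was 18, still with 0 lower. The called sensors and effectors included Zbp1, Oas1a, Ifih1 and Ddx58 (nucleic acid sensors), Rsad2, Ifit1, Ifit2 and Ifit3 (inhibitors of viral replication), and the transcription factors Irf7 and Stat2. Interferon target genes are read through the interferon-stimulated response element, the site bound by a complex that holds STAT2 and IRF9. Its core, GAAA repeated after any 2 bases, searched on both strands of the window from 250 bases before to 50 after the start site in the first RefSeq promoter listed per gene (GRCm38.p6), was found for 17 of the 27 tested members with a promoter sequence (63.0%), 14 of the 22 called ones, and 3.49% of 27025 genes. The list was chosen as interferon response genes, so this share describes the list and not the difference between injuries. The promoters of Ifit1 (chr19:34640639-34640938, plus strand), Ifit3 (chr19:34583279-34583578, plus strand) and Cxcl10 (chr5:92348840-92349139, minus strand) are given because these 3 genes hold that motif and were all called. Capitals mark each match on either strand.
Ifit1: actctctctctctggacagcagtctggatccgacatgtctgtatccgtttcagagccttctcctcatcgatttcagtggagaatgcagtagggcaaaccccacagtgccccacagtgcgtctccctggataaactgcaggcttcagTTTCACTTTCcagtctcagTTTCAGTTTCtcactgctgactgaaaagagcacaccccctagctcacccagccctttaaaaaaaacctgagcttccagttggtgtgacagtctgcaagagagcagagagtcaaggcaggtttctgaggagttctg
Ifit3: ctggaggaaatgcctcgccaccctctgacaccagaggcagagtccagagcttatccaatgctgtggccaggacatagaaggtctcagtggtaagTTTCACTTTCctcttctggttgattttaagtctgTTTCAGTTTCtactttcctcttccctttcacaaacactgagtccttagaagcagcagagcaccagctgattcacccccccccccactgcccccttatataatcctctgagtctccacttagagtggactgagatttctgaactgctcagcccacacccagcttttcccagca
Cxcl10: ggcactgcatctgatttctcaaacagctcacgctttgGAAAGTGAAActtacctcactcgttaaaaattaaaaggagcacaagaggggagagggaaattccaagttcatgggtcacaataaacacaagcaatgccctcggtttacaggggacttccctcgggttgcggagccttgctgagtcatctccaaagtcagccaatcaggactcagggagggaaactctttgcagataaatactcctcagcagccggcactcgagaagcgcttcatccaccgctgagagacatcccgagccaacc

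Zbp1, which senses Z-form nucleic acid and can start necroptosis, had normalized counts of 4986, 1955 and 4898 after ONC and 336, 412, 845 and 349 after IOP elevation. Every ONC library exceeded every IOP library, an 8.05-fold difference (log2 fold change 3.01 ± 0.38 (SE), adjusted p = 5.54e-05), and naïve libraries held 303 to 501. Irf7, the master regulator of interferon production and itself an interferon target, stood at 16899.8, 14144 and 17561 after ONC and 3069, 2728, 4936 and 3059 after IOP elevation (log2 fold change 2.27 ± 0.29 (SE), adjusted p = 6.14e-05), again with no overlap, and at 1187 to 2745 in naïve retinas. Ifit3 was at 9779, 9603 and 17613 against 2026, 2811, 5321 and 2435 (log2 fold change 2.01 ± 0.31 (SE), adjusted p = 2.96e-04), and for this gene IOP replicate 3 was the highest of its group. Ifi27l2a reached 60049, 8791 and 14917 against 966, 1478, 2046 and 1058, and its fold change (log2 fold change 3.91 ± 0.48 (SE), adjusted p = 3.86e-05) was the highest of the list, with ONC replicate 1 far above the other 2 ONC libraries. Xaf1 differed by 4.25-fold (log2 fold change 2.09 ± 0.30 (SE), adjusted p = 1.42e-04). Against naïve libraries 36 of the 37 members were called higher after ONC and 2 after IOP elevation, with list medians of 2.38 and 0.56.

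MHC class I genes, which load and show peptides from inside the cell, were higher after ONC in 14 of 18 cases with 0 lower (median log2 fold change 1.35), against 10.9% and 13.4% of all genes. Without ONC replicate 1 the count was 9, and without IOP replicates 1 and 4 it was 4. B2m, the shared light chain, had normalized counts of 172798, 91177 and 114144 after ONC and 25749, 52676, 44436 and 27097 after IOP elevation (log2 fold change 1.77 ± 0.34 (SE), adjusted p = 0.00153), and the groups did not overlap. H2-K1 stood at 49359, 25744 and 39328 against 8016, 17443, 14076 and 8604 (log2 fold change 1.69 ± 0.31 (SE), adjusted p = 0.00112). H2-Q7 and H2-T22, non-classical members whose reads can be shared with near-identical copies, differed by 7.55-fold and 5.22-fold, and the peptide transporter subunit Tap1 by 2.81-fold. The interferon-inducible proteasome subunits Psmb8, Psmb9 and Psmb10 were called at 1.57, 1.47 and 0.95 on the log2 scale, and the proteasome activators Psme1 and Psme2 at 1.57 and 1.49. A separate list of 34 tested proteasome genes leaves out Psmb8, Psmb9 and Psmb10. In that list 4 were called higher, a share near the 10.9% of all genes, and 0 lower. These 4 were Psme1, Psme2, Psma1 and Psmb1, and the last 2 had overlapping groups.

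**Figure D3:**
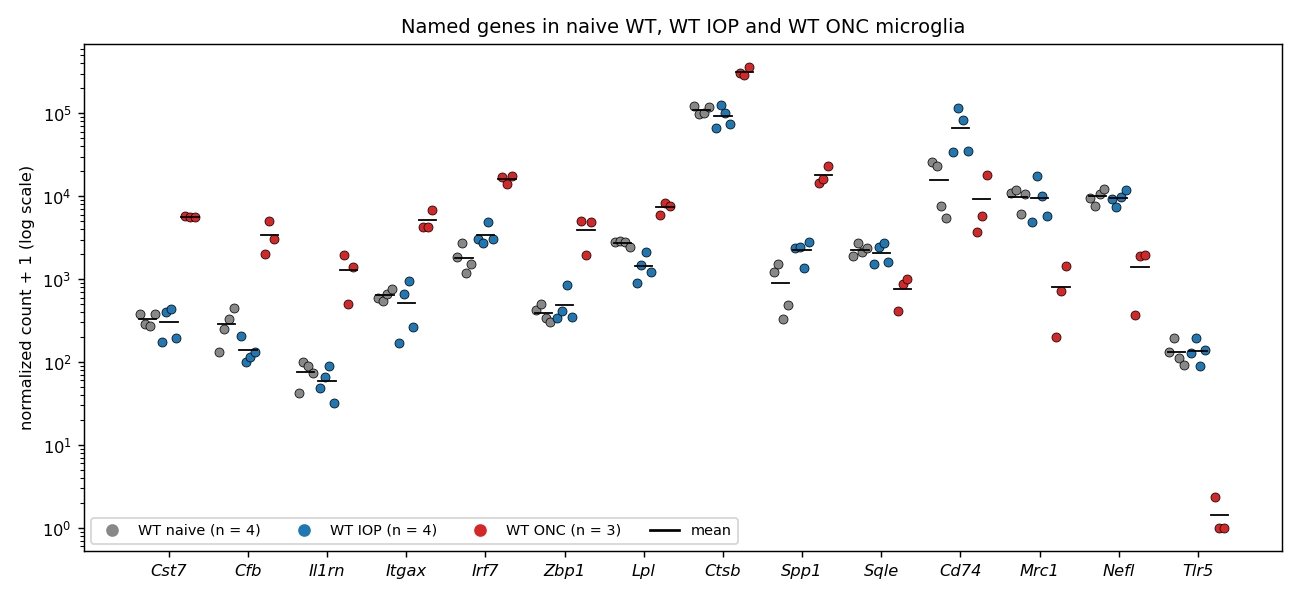
Normalized count + 1 of 14 genes in every naïve, IOP and ONC library of WT mice, on a log axis; points are libraries and bars are group means. Cst7, Cfb, Il1rn, Itgax, Irf7, Zbp1, Lpl, Ctsb and Spp1 lie higher in all 3 ONC libraries than in all 4 IOP libraries, and Sqle, Cd74, Mrc1, Nefl and Tlr5 lie lower.

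Disease-associated microglia genes formed a group with 21 of 33 tested members higher after ONC and 1 lower (median log2 fold change 1.64), against 10.9% and 13.4% of all genes. Without ONC replicate 1 the numbers were 16 and 0, and without IOP replicates 1 and 4 they were 12 and 0. Cst7 (chr2:150570415-150578944), an inhibitor of lysosomal cysteine proteases, gave 5794, 5573 and 5595 normalized counts after ONC and 171, 405, 432 and 191 after IOP elevation. The ONC libraries were close to each other, every one of them was far above the IOP libraries, and naïve libraries held 269 to 382 (log2 fold change 4.36 ± 0.30 (SE), adjusted p = 1.94e-08). Itgax, the integrin chain CD11c, was at 4279, 4236 and 6788 after ONC and 169, 669, 958 and 261 after IOP elevation (log2 fold change 3.60 ± 0.49 (SE), adjusted p = 1.08e-04), with the lowest values in IOP replicates 1 and 4. Csf1, a survival and growth factor for microglia, stood at 1643, 2811 and 4024 against 359.99, 414, 273 and 215 (log2 fold change 3.11 ± 0.49 (SE), adjusted p = 3.66e-04), and Axl, a receptor for apoptotic debris, at 76585, 41125 and 80296 against 7344, 19393, 20486 and 8489.6 (log2 fold change 2.33 ± 0.35 (SE), adjusted p = 2.45e-04).

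Clec7a, the pattern receptor dectin-1, had 47163, 17812 and 29792 against 4491, 8499, 7618 and 4033 (log2 fold change 2.32 ± 0.35 (SE), adjusted p = 2.64e-04), and Lpl, which releases fatty acids from lipoproteins, 5969.7, 8331 and 7690.2 against 903, 1482, 2101 and 1221 (log2 fold change 2.41 ± 0.23 (SE), adjusted p = 3.19e-06). Lpl after IOP elevation lay below the naïve range of 2422 to 2912, with all 4 IOP libraries under the lowest naïve one. Trem2, the lipid-sensing receptor that licenses this state, differed by 2.20-fold (log2 fold change 1.13 ± 0.30 (SE), adjusted p = 0.0125) and lost its call without IOP replicates 1 and 4 and without ONC replicate 1. The single member called lower was Colec12, a scavenger receptor (-1.39, adjusted p = 0.0297). Apoe (ONC 30976, 211756 and 113531; IOP 140262, 400429.95, 221520.02 and 108996; adjusted p = 0.105), Gpnmb (adjusted p = 0.334) and Lgals3 (adjusted p = 0.265) were not called, and their groups overlapped.

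Spp1 (chr5:104435118-104441050), the secreted phosphoprotein osteopontin, had normalized counts of 14557, 16067 and 22906 after ONC, 2353, 2409.8, 1343 and 2772 after IOP elevation and 334 to 1518 in naïve libraries. The ONC libraries were all above the others, yet the gene was not called in the fit over 23 libraries (log2 fold change 3.03 ± 1.71 (SE), adjusted p = 0.19), which shares 1 estimate of spread with the libraries labelled KO. Those held 25.5, 811, 9.28 and 761 normalized counts of Spp1 after IOP elevation and 4750.3, 6811, 15 and 6226 after ONC, so that 3 of the 4 KO ONC libraries went against a loss of the transcript. Whether those reads fall in the deleted part of the gene was not tested. In the fit of the 11 WT libraries alone its adjusted p was 0.00267, with the 7 libraries alone it was 0.0016, and edgeR on recovered reads gave 0.00338. At a gap of at least 1 on the log2 scale (with 4 added to each value), Spp1 was the only gene of the 15655 whose 3 WT ONC values exceeded all of the other 20 libraries, and 7 genes lay below all of them by that margin (Clec10a, Dpf1, Gabrb1, Gipc2, Kcnj3, Tlr5 and Tnc). The 20 include the 12 libraries labelled KO for Spp1 itself, so for this gene that standing depends in part on genotype. Among receptors of SPP1, 3 were called higher, the integrin chains Itgb1 (2.00), Itgb5 (0.93) and Itga5 (0.85), and 2 lower, Itga4 (-1.53) and Itga8 with 3 reads in the ONC libraries together and 227 in the IOP libraries. Itgav (ONC 1349, 998 and 2703; IOP 951, 1059.9, 1148 and 1500.5), Itgb3 (ONC 1114, 1619 and 3966; IOP 1573, 2547, 2385 and 1096) and Cd44 (ONC 1037, 1079 and 1738; IOP 1459, 1713, 2080.2 and 1595) were not called.

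Lysosomal genes were higher after ONC in 32 of 51 cases and lower in 0 (median 0.79). The count fell to 17 without ONC replicate 1 and to 6 without IOP replicates 1 and 4. Cathepsins are the proteases of this compartment. Ctsb had normalized counts of 303278, 290671 and 361603 after ONC and 67375, 126170.5, 101228 and 73374 after IOP elevation (log2 fold change 1.83 ± 0.27 (SE), adjusted p = 2.07e-04), with no overlap, and Ctsl had 49606, 30083 and 36094 against 9765, 15111, 12890.3 and 10699 (log2 fold change 1.66 ± 0.23 (SE), adjusted p = 1.30e-04). Ctsa, the protective protein of lysosomal glycosidases, differed by 2.66-fold, Ctsh by 2.82-fold and Cd63, a membrane protein of late endosomes, by 3.14-fold. Others called were the cholesterol-binding protein Npc2 (1.37), the calcium channel Mcoln1 (2.48), Tfeb, the transcription factor of lysosome biogenesis (1.49), and 6 proton pump genes (Atp6v0b, Atp6v0c, Atp6v1c1, Atp6v1f, Atp6v1g1 and the accessory Atp6ap1). Macroautophagy genes were called at shares near those of all genes (10.9% higher and 13.4% lower), with 6 of 45 called higher (among them Becn1, 1.00, and Gabarap, 1.05) and 4 lower (among them Gabarapl1, -1.23), and a median of 0.14.

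Phagocytosis and efferocytosis genes were called in both directions. Of 38 tested, 15 were called higher and 7 lower (median 0.72), against 10.9% and 13.4% of all genes. The numbers were 7 and 2 without ONC replicate 1, and 2 and 4 without IOP replicates 1 and 4. The Fc receptors Fcgr4, Fcgr1 and Fcgr3 and their signalling chain Fcer1g were called higher, Fcgr4 from 640.3, 1349, 1511 and 831 after IOP elevation to 5179, 2795 and 4939 after ONC (log2 fold change 2.02 ± 0.34 (SE), adjusted p = 6.39e-04). The scavenger receptors Msr1 and Stab1, the phosphatidylserine receptor Timd4 and the engulfment receptor Megf10 were called lower. Msr1 stood at 336, 425 and 751 after ONC and 1887, 5868, 2510.2 and 2126 after IOP elevation (log2 fold change -2.54 ± 0.46 (SE), adjusted p = 0.00104), and Stab1, which is also a marker of border macrophages, differed by 3.93-fold.

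Genes of cholesterol synthesis were lower after ONC. Of 23 tested genes of synthesis and uptake 16 were called lower and 0 higher, against 13.4% of all genes called lower, and the median log2 fold change was -0.92. The count without ONC replicate 1 was 15, and without IOP replicates 1 and 4 it was 12. The called genes span the pathway, from Hmgcs1 through Mvk, Pmvk, Mvd, Idi1 and Fdps to Sqle, Lss, Cyp51, Msmo1 and Sc5d, and include Srebf2, their transcription factor. Sqle, squalene epoxidase, had normalized counts of 411, 868 and 1005 after ONC against 1502, 2424, 2731 and 1588 (log2 fold change -1.49 ± 0.26 (SE), adjusted p = 7.16e-04), and Fdps, farnesyl diphosphate synthase, 1274, 1143 and 1111 against 2009.7, 2472, 2309 and 2076 (log2 fold change -0.91 ± 0.16 (SE), adjusted p = 7.54e-04). For both genes and for Idi1 (-1.13) and Msmo1 (-0.92) no ONC library reached the lowest IOP library. The IOP libraries did not stand apart from naïve ones here, with 0 of 23 genes called in either direction and a list median of -0.13, against 16 called lower after ONC. In the libraries labelled KO the same comparison of injuries called 11 of 23 lower and 0 higher (median -1.05).

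The sterol response element searched for, TCACNCCAC on both strands, was found in the promoter window of 1 of the 16 members with a sequence, Hmgcs1, and of 1.22% of all genes. The absence of these letters from the other windows says nothing of the factor. That promoter (chr13:119690101-119690400, plus strand) is shown with the match in capitals.
Hmgcs1: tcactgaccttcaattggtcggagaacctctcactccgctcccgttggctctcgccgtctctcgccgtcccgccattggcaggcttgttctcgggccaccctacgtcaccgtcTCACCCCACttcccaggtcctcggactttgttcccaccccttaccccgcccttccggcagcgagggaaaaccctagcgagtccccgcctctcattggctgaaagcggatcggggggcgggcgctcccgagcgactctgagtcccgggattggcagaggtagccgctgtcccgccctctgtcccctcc

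Genes of cholesterol efflux, lipid storage and fatty acid handling gave 8 of 27 higher and 1 lower (median 0.58), against 10.9% and 13.4% of all genes. They gave 3 and 0 without ONC replicate 1. The cholesterol exporters Abcg1 (log2 fold change 1.28 ± 0.28 (SE), adjusted p = 0.00367) and Abca1 (0.84), the esterifying enzyme Soat1 (1.41), the hydroxylase Ch25h (1.83) and the triglyceride enzyme Dgat1 (1.23) were among those called higher. Plin2, which coats lipid droplets, had 3201, 1444 and 2779 against 886, 1528, 1320.1 and 853 and overlapping groups (log2 fold change 1.07 ± 0.29 (SE), adjusted p = 0.0138). Fabp4, a fatty acid carrier of adipocytes and macrophages, was the member called lower (-3.13).

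**Figure D4:**
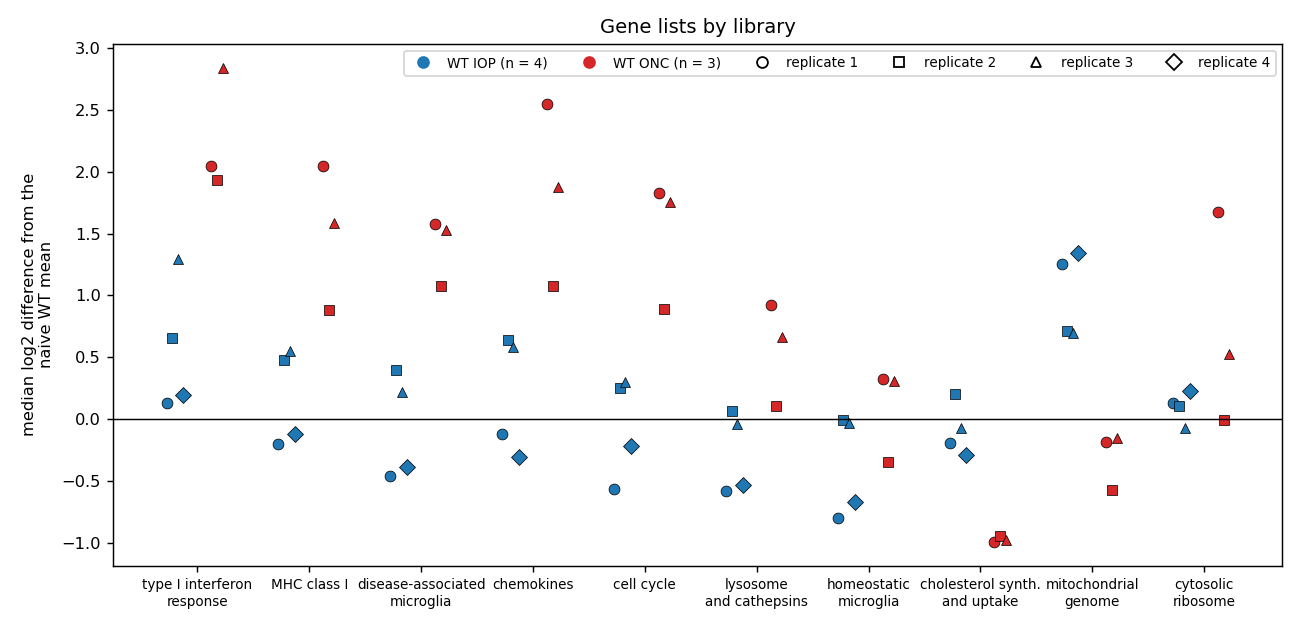
Median log2 difference from the naïve WT mean over the members of 10 gene lists, for each of the 7 libraries; each point is 1 library. Interferon response medians are 1.93 to 2.84 in the ONC libraries and 0.13 to 1.30 in the IOP libraries, and cholesterol synthesis medians are -0.996 to -0.95 and -0.29 to 0.20.

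Chemokines were higher after ONC in 12 of 20 cases and lower in 1 (median log2 fold change 1.95), against 10.9% and 13.4% of all genes. In each case without ONC replicate 1 or without IOP replicates 1 and 4, 9 were called higher. Ccl4, which draws T cells and monocytes, had normalized counts of 4658, 2665 and 3466 after ONC and 223, 489, 373 and 207 after IOP elevation (log2 fold change 3.53 ± 0.44 (SE), adjusted p = 4.31e-05). Ccl5 was at 1899, 3371 and 2248 against 249, 712, 286 and 226 (log2 fold change 2.89 ± 0.40 (SE), adjusted p = 1.30e-04), with naïve libraries at 388 to 843. Ccl2, which draws CCR2-positive monocytes, stood at 2771, 832 and 1607 against 179, 159.9, 328 and 276 (log2 fold change 2.77 ± 0.46 (SE), adjusted p = 5.59e-04), and Cxcl10, an interferon-induced ligand of CXCR3, at 2609, 1367 and 1808 against 136, 197, 278 and 197 (log2 fold change 3.24 ± 0.52 (SE), adjusted p = 4.17e-04). Cxcl9, Cxcl13, Ccl3, Ccl6, Ccl9, Ccl12, Cxcl16 and the decoy receptor Ccrl2 made up the rest, of which Cxcl9 lost its call in 14 of 25 other settings. Cxcl2, a neutrophil chemoattractant, was lower (-3.86, adjusted p = 0.0182).

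Cytokine and inflammasome genes gave 8 of 25 higher and 1 lower (median 0.58), against 10.9% and 13.4% of all genes. They gave 3 and 0 without IOP replicates 1 and 4. Il1rn, the antagonist of the interleukin-1 receptor, had 1954, 498 and 1391 after ONC and 47.6, 64.6, 88.6 and 31.02 after IOP elevation (log2 fold change 4.33 ± 0.48 (SE), adjusted p = 1.16e-05). All ONC libraries lay above the IOP and the naïve libraries (41.7 to 98.9). Il1b itself stood at 448, 381 and 525 against 51.3, 197, 216 and 46.1 (log2 fold change 2.15 ± 0.45 (SE), adjusted p = 0.00304), and Il1r2, the decoy receptor, at 1.34, 8.06 and 35.1 against 50.4, 107, 45.3 and 64.7 (log2 fold change -2.81 ± 0.79 (SE), adjusted p = 0.0154). The adaptor Pycard (2.22), the caspase Casp4 (2.07), the pore-forming Gsdmd (1.19), Il18 (1.12), Il1a (1.20) and Il12b (4.91) were called higher, whereas Tnf had 96.6, 131 and 164 against 54.96, 68.98, 139.6 and 74.4 and was not called (adjusted p = 0.403).

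In the NF-kB pathway 5 of 23 genes were called higher and 0 lower (median 0.32), against 10.9% and 13.4% of all genes. Without ONC replicate 1 the number higher was 2. Relb, a subunit of the non-canonical branch, had 1884, 963 and 2272 against 229, 393, 133 and 69.1 (log2 fold change 3.23 ± 0.60 (SE), adjusted p = 0.00128), and its partner Nfkb2 had overlapping groups (log2 fold change 1.04 ± 0.36 (SE), adjusted p = 0.0415). Toll-like receptor genes, beside the same shares of all genes, gave 6 of 20 higher and 1 lower (median 0.64), and 1 and 1 without ONC replicate 1. Tlr2, the receptor for bacterial lipopeptides, stood at 20728, 8037 and 14883 against 2667, 5253, 5959.5 and 2786 (log2 fold change 1.79 ± 0.36 (SE), adjusted p = 0.00231). Tlr5, the flagellin receptor, went the other way, with 1 read in the ONC libraries together and 561 in the IOP libraries, normalized counts of 126, 192, 87.7 and 137 after IOP elevation, and 91.01 to 193 in naïve retinas (adjusted p = 2.17e-06). The ratio of IOP to ONC for Tlr5 was 330.3, with an exact 95% counting interval of 59.0 to 13068 that covers counting error only.

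MHC class II and complement genes were called in both directions. Of 13 MHC class II genes 4 were called higher and 4 lower (median 0.51), against 10.9% and 13.4% of all genes. The 4 called lower were the classical chains H2-Aa, H2-Ab1 and H2-Eb1 and the invariant chain Cd74, and the 4 called higher were H2-Oa, H2-Ob and H2-DMb2, which edit peptide loading, and the costimulator Cd86. Cd74 had normalized counts of 3703, 5713 and 17978 after ONC, 34226, 116473, 82608 and 34953 after IOP elevation and 5410.4 to 25719 in naïve libraries (log2 fold change -3.01 ± 0.61 (SE), adjusted p = 0.0024). H2-Aa had 1076, 827 and 4262 against 7777, 23884, 20575 and 7981 (log2 fold change -3.08 ± 0.65 (SE), adjusted p = 0.00304), and ONC replicate 3 was the highest of its group for both. Against naïve WT, these 4 class II members were called higher after IOP elevation and 0 were called lower. The list gave 2 higher and 4 lower without ONC replicate 1. It gave 0 and 5 without IOP replicates 1 and 4.

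In the complement list 4 of 21 genes were called higher and 2 lower (median 0.60), against 10.9% and 13.4% of all genes. Cfb, factor B of the alternative pathway, had 1988, 5055 and 3077 after ONC and 205, 98.5, 114 and 132 after IOP elevation, and ONC replicate 2 was the highest (log2 fold change 4.56 ± 0.45 (SE), adjusted p = 3.88e-06). Cfp, properdin, which stabilises the convertase that factor B forms, was lower, at 187, 158 and 344 against 1239, 3158, 1284 and 1467 (log2 fold change -2.92 ± 0.44 (SE), adjusted p = 2.41e-04). C1qc and C1qb, chains of the first component, differed by 2.66-fold and 2.05-fold, and C3 had 682, 1175 and 957 against 431, 453, 653 and 442 with no call (adjusted p = 0.107).

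Cell cycle genes were higher after ONC, 26 of 56 tested and 0 lower (median 1.85), against 10.9% and 13.4% of all genes. The count without ONC replicate 1 was 13, and without IOP replicates 1 and 4 it was 10. Ccnb2, a mitotic cyclin, had normalized counts of 2282, 381 and 1013 after ONC and 84.3, 72.3, 119 and 31.9 after IOP elevation (log2 fold change 3.77 ± 0.63 (SE), adjusted p = 6.08e-04). Cdk1, the kinase it activates, had 1649, 505 and 764 against 103, 199, 196 and 143 (log2 fold change 2.47 ± 0.37 (SE), adjusted p = 2.25e-04), and Cdc20, which opens anaphase, 1616, 353 and 795 against 37.6, 152, 119 and 43.4 (log2 fold change 3.36 ± 0.53 (SE), adjusted p = 3.88e-04). For each of these genes ONC replicate 1 was the highest and ONC replicate 2 the lowest of the ONC libraries, with no overlap with the IOP libraries. Mki67 was at 469.7, 318 and 469 against 66.9, 114, 58.5 and 45.2 (log2 fold change 2.60 ± 0.60 (SE), adjusted p = 0.0057) and Top2a at 693, 699.7 and 1392 against 158, 355, 332 and 317 (log2 fold change 1.66 ± 0.45 (SE), adjusted p = 0.0128). Replication genes were called less widely, with Mcm6 at 1.05, Tyms at 1.19 and Rrm2 at 3.00. The difference in how widely was not tested.

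The cell-cycle homology region, TTTGAA on either strand, a site read by repressor complexes of resting cells, lay in the promoter window of 22 of the 44 cell cycle genes with a sequence (50%), of 13 of the 22 called ones, and of 18.1% of all genes. That share likewise describes a list chosen as cell cycle genes and not the difference between injuries. The promoters of Cdk1 (chr10:69352863-69353162, minus strand) and Cdc20 (chr4:118437294-118437593, minus strand), both called, are shown with the matches in capitals.
Cdk1: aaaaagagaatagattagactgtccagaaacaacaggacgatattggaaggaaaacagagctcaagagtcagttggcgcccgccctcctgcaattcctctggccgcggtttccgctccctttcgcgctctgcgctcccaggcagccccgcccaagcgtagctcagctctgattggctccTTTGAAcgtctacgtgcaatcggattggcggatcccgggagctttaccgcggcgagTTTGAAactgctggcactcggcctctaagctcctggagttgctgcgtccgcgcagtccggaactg
Cdc20: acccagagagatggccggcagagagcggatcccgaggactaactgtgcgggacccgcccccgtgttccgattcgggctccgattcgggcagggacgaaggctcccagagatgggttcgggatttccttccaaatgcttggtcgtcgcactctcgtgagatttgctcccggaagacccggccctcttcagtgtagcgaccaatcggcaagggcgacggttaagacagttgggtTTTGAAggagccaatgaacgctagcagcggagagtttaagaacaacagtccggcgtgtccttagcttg

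Homeostatic genes are those that uninjured microglia express, and their counts stand beside 10.9% of all genes called higher and 13.4% called lower. Of 29 tested, 6 were called higher after ONC and 0 lower (median 0.43), 3 and 0 without ONC replicate 1, 1 and 0 without ONC replicate 3, and 0 in either direction without IOP replicates 1 and 4. Centred on microglia markers, 1 was called higher and 7 lower. Sparc (1.31), Olfml3 (1.26), Bin1 (1.20), Rhob (1.75) and Fcrls (1.04) were among those called. P2ry12 (adjusted p = 0.852), Tmem119 (adjusted p = 0.789) and Siglech (adjusted p = 0.109) were not called.

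Among TGFβ signalling genes and identity factors 8 of 23 were called higher and 1 lower (median 0.52), against 10.9% and 13.4% of all genes. Without IOP replicates 1 and 4 the list gave 0 either way. Spi1, which encodes PU.1 (1.95), Irf8 (1.25), Cebpa (1.42), Runx1 (1.61) and Mef2a (1.70) were among those called higher, and Runx1 and Mef2a lost their calls with the co-varying genes as a covariate. Of 16 purinergic receptor genes 4 were higher and 2 lower (median 0.33), and the share lower was near the 13.4% of all genes. P2rx4, an ATP-gated channel induced in reactive microglia, stood at 11084, 6632 and 9302 against 2103, 4525, 4388 and 1912 (log2 fold change 1.56 ± 0.29 (SE), adjusted p = 0.00127), and Nt5e, the ecto-enzyme that makes adenosine, at 263, 1249.7 and 314 against 1759, 1304, 1807 and 1268 (log2 fold change -1.69 ± 0.40 (SE), adjusted p = 0.00594).

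All 13 protein-coding genes of the mitochondrial genome were called lower after ONC, with a median log2 fold change of -1.34. They stayed 13 of 13 without ONC replicate 1 and were 10 of 13 without IOP replicates 1 and 4. mt-Nd6, a subunit of complex I, had normalized counts of 2181, 4010.3 and 4768 after ONC, 18482, 12940.5, 11629 and 20554 after IOP elevation and 5623 to 8412 in naïve libraries (log2 fold change -2.16 ± 0.24 (SE), adjusted p = 1.40e-05). mt-Nd2 had 16746, 23089.7 and 26664 against 86819.97, 59603, 55682 and 93764 (log2 fold change -1.73 ± 0.23 (SE), adjusted p = 9.78e-05), and the groups did not overlap for either. Against naïve WT, 9 of the 13 were called higher after IOP elevation and 2 lower after ONC. Nuclear genes of the respiratory chain gave 4 of 48 higher and 0 lower (median 0.30), shares below the 10.9% and 13.4% of all genes. Summed over the list, the mitochondrial transcripts were 2485980 and 2667917 in IOP replicates 1 and 4 and 1736839 and 1677212 in replicates 2 and 3, against 717016 to 1011379 after ONC; the part of the lower microglia marker level of replicates 1 and 4 was not tested, and the difference is also seen with replicates 2 and 3 alone.

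Other housekeeping lists were mixed, beside shares of 10.9% called higher and 13.4% called lower over all genes. Cytosolic ribosome genes gave 14 of 55 higher and 0 lower (median 0.61), but 0 without ONC replicate 1 and 41 without ONC replicate 2. Their summed level was 792496 in ONC replicate 1, against 253572 and 376548 in the other 2 and 243577 to 285709 after IOP elevation. Of 24 genes of glycolysis and glucose transport 4 were higher and 5 lower (median -0.12), with Slc2a6, a lysosomal hexose transporter, at 6637, 2119 and 4014 against 329, 888, 1149 and 468 (log2 fold change 2.60 ± 0.42 (SE), adjusted p = 4.17e-04), and Eno2, the neuronal enolase, at 1393, 3786 and 1801 against 5658, 4141, 6857 and 5799.8 (log2 fold change -1.38 ± 0.24 (SE), adjusted p = 7.41e-04). Heat shock genes gave 4 higher and 4 lower of 21 (median -0.08). The inducible chaperones Hspa1a (-1.82) and Hspa1b (-2.07), near-identical copies that can share reads, were lower. Immediate early genes gave 3 of 21 higher, Egr1 (2.81), Egr2 (2.02) and Ier5 (1.61), and 3 lower, Fos (-1.55), Nr4a1 (-2.04) and Ier3 (-1.55). Both shares were near those of all genes (10.9% higher and 13.4% lower). A list of 12 tested genes that respond to cell dissociation overlaps these lists and gave 3 higher and 4 lower.

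Iron and heme genes gave 6 of 19 higher and 4 lower (median 0.31), against 10.9% and 13.4% of all genes. The ferritin chains Ftl1 (log2 fold change 1.45 ± 0.29 (SE), adjusted p = 0.00197) and Fth1 (log2 fold change 1.16 ± 0.30 (SE), adjusted p = 0.00991) were higher, and the hemoglobin receptor Cd163, at 0, 70.2 and 433 against 1968, 4585, 979 and 1642 (log2 fold change -5.96 ± 1.19 (SE), adjusted p = 0.0022), and the siderophore binder Lcn2, at 36.2, 32.2 and 33.9 against 3067, 787, 504 and 3565 (log2 fold change -5.36 ± 1.37 (SE), adjusted p = 0.00956), were lower. Lcn2 in IOP replicates 1 and 4 was several times that in replicates 2 and 3. Extracellular matrix and protease genes gave 10 of 32 higher and 5 lower (median -0.12), and the share lower was near the 13.4% of all genes. Plaur, the urokinase receptor, had 1216, 1145 and 1391 against 153, 475, 264 and 259.7 (log2 fold change 2.23 ± 0.31 (SE), adjusted p = 1.13e-04), Mmp2, a gelatinase, 4512, 1518 and 4201 against 457, 928, 1049 and 732 (log2 fold change 2.02 ± 0.34 (SE), adjusted p = 5.54e-04), and Serpine2, a protease inhibitor, 34804, 25635 and 35997 against 8421, 13808, 12768 and 8677 (log2 fold change 1.58 ± 0.24 (SE), adjusted p = 2.78e-04). Timp1, another protease inhibitor, was lower (-4.97, adjusted p = 0.0148).

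Of 23 growth factor genes 1 was called higher (Csf1, above) and 4 lower (median -0.86), against 10.9% and 13.4% of all genes. Hbegf, an EGF receptor ligand, had 59.1, 113 and 53.8 against 426, 229.9, 409 and 305 (log2 fold change -2.21 ± 0.33 (SE), adjusted p = 2.45e-04), and Tgfb3 (-2.54), Inhba (-2.44) and Ptn (-1.68) had overlapping groups. In the list for amyloid-β production 3 of 14 genes were higher and 3 lower (median 0.44), against the same shares of all genes. The α-secretases Adam10 (0.95) and Adam17 (0.92) and the γ-secretase subunit Ncstn (1.08) were higher, the β-secretase Bace1 (-1.17) was lower, and App was not called (adjusted p = 0.403). None of the 14 was called without IOP replicates 1 and 4. Eicosanoid synthesis gave 2 of 19 higher, the prostaglandin receptor Ptger4 (3.07) and the prostaglandin D synthase Hpgds (1.28), and 1 lower, Pla2g7 (-1.22). These shares were near or below those of all genes (10.9% higher and 13.4% lower).

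The counts of further lists also rested on few libraries. When ONC replicate 1 was left out, 3 complement genes were called higher and 2 lower. The same setting gave 1 and 2 for macroautophagy, 1 and 4 for iron and heme, and 7 and 0 for extracellular matrix. It gave 4 and 0 for cytokines, 2 and 0 for TGFβ signalling, 2 and 0 for purinergic receptors, 2 and 1 for growth factors and 2 and 0 for the proteasome. The nuclear respiratory chain then gave 0 and 3, and its median turned to -0.14. When IOP replicates 1 and 4 were left out, complement gave 1 and 2, macroautophagy 2 and 1, iron and heme 1 and 1, and extracellular matrix 3 and 3. Cholesterol efflux gave 3 and 0, NF-kB 1 and 0, Toll-like receptors 0 and 2, and purinergic receptors 1 and 0. Growth factors gave 1 and 1, the proteasome 2 and 0, and the ribosome 0 and 0. Glycolysis genes gave 2 and 2 in both settings, and heat shock genes 1 and 2. Immediate early genes gave 1 and 2 in the first and 0 and 0 in the second.

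Markers of some other cells of the eye, those of border macrophages, ganglion cells, amacrine and horizontal cells, rods and lens, were called lower after ONC at shares above the 13.4% of all genes. The summed cornea and iris markers were at 14059 to 26703 after ONC and 8706 to 9886 after IOP elevation. That sum was mostly Cd34 (mean 22098 after ONC and 7151 after IOP elevation), the 1 member called higher of 4 tested among 11 listed. The 2 called lower were Aldh3a1 (mean 0 after ONC and 921 after IOP elevation) and Aldh1a1 (231 and 841). The sum therefore does not give the direction of the list. In these bulk samples fewer cells of a type and less RNA per cell cannot be told apart. Border macrophage markers, genes of macrophages around vessels and at tissue borders that also express Cx3cr1, were lower in 8 of 10 cases with 0 higher (median log2 fold change -3.29), and in 8 of 10 without ONC replicate 1 and without IOP replicates 1 and 4. Mrc1, the mannose receptor, had normalized counts of 199.97, 727 and 1459 after ONC, 4870.4, 17615, 9985 and 5820.1 after IOP elevation and 6164 to 11738 in naïve libraries (log2 fold change -3.81 ± 0.55 (SE), adjusted p = 1.63e-04). Pf4 had 150.3, 168 and 397 against 2174, 6807, 2636 and 2269 (log2 fold change -3.82 ± 0.50 (SE), adjusted p = 7.69e-05), and Lyve1 25.5, 192 and 76.04 against 879, 2368, 866 and 923 (log2 fold change -3.95 ± 0.50 (SE), adjusted p = 4.79e-05). The summed level of the 10 markers was 4746, 5426 and 15904 after ONC, 27770 to 84614 after IOP elevation and 30121 to 58243 in naïve libraries. The exact permutation test of that sum gave the smallest two-sided p that 3 against 4 libraries allow, 0.0571. The 4 MHC class II genes called lower, Timd4, Msr1, Stab1 and Cfp moved in the same direction as these markers, and their part in each other was not tested.

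Monocyte markers gave 1 of 10 higher, Ms4a4c (log2 fold change 1.77 ± 0.46 (SE), adjusted p = 0.0103), which is also interferon-induced, and 1 lower, Itga4, while Ccr2 had 157, 119 and 112 against 155, 404, 464 and 143 and was not called (adjusted p = 0.379). Both shares of monocyte markers were near those of all genes (10.9% higher and 13.4% lower). Their summed level overlapped between the groups (5000 to 7516 after ONC and 4428 to 5239 after IOP elevation). Of the 10 neutrophil markers 2 passed the count filter, S100a8 and Cxcr2 (-1.09), and both were called lower. S100a8 had no read in any ONC library and 46.7, 10.9, 26.4 and 64.7 after IOP elevation, at least 10.2-fold lower against a floor of 3 reads per library. It passed the count filter through the IOP libraries alone, which fixed its direction in advance. Of 14 lymphocyte markers 8 were tested. The T cell receptor genes Trac (ONC 75.2, 23.01 and 25.7, IOP 9.16, 10.9, 4.71 and 1.77) and Cd3g (ONC 114, 10.4 and 12.9, IOP 8.24, 5.47, 2.83 and 4.43) were called higher at these low levels. Cd3g passed the count filter through the ONC libraries alone, which fixed its direction in advance. Cd4 was lower (-2.69). Dendritic cell markers gave 0 calls by limma among 6 tested, and 2 of them had an unadjusted p under 0.05.

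**Figure D5:**
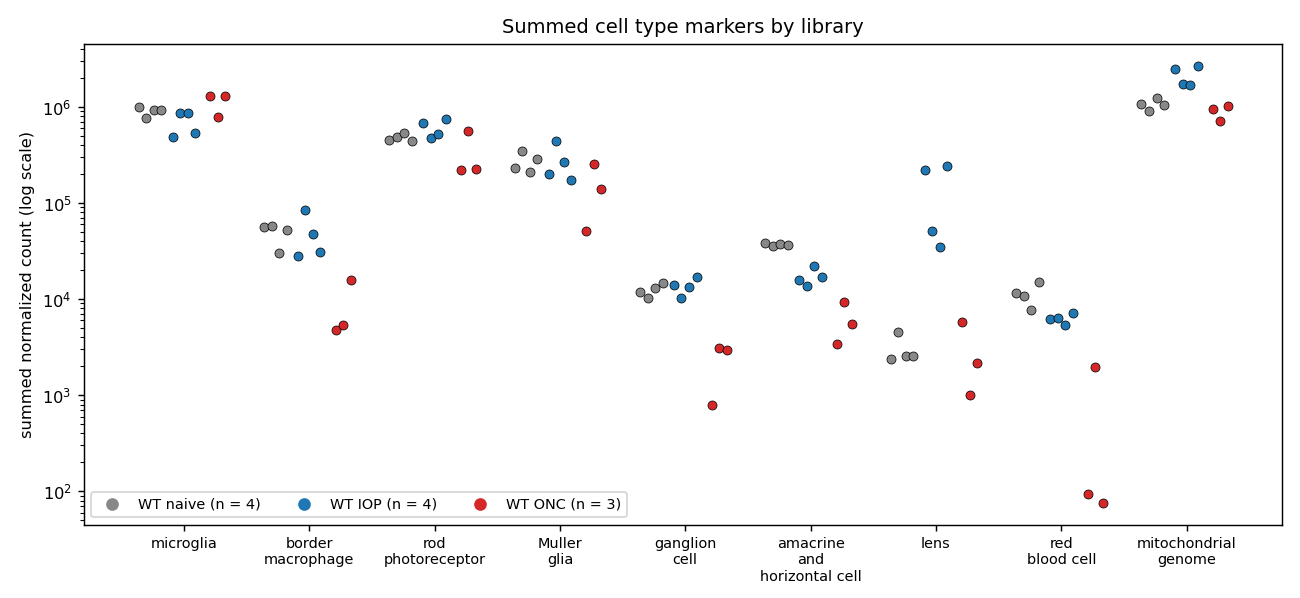
Summed normalized counts of marker lists in each naïve, IOP and ONC library of WT mice, on a log axis; each point is 1 library. Lens markers are 34704 to 242153 in the IOP libraries against 1016 to 5732 in the ONC libraries, border macrophage and ganglion cell markers are lower in all ONC libraries, and microglia markers overlap.

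Ganglion cell markers were lower in 11 of 13 cases with 0 higher (median log2 fold change -3.09), in 9 without ONC replicate 1 and in 5 without IOP replicates 1 and 4. Of these, Pou4f1 and Pou4f2 had no read after ONC, so they passed the count filter through the IOP libraries alone. Nefl, the light neurofilament chain, had 365, 1896 and 1957 after ONC, 9377, 7347, 9895 and 11775 after IOP elevation and 7682 to 12052 in naïve libraries (log2 fold change -3.09 ± 0.38 (SE), adjusted p = 4.03e-05). Sncg, γ-synuclein, had 45.6, 81.7 and 73.7 against 809.7, 463, 438 and 810.1 (log2 fold change -3.20 ± 0.32 (SE), adjusted p = 4.54e-06), and Stmn2, a microtubule regulator, 85.9, 171 and 135 against 980.1, 528, 674 and 1125 (log2 fold change -2.65 ± 0.34 (SE), adjusted p = 5.54e-05), with no overlap for any of the 3. Summed ganglion cell markers were 784, 3075 and 2929 after ONC, 10266 to 16915 after IOP elevation and 10330 to 14718 in naïve libraries. Amacrine and horizontal cell markers were lower in 8 of 12 cases, for example Pax6, at 643, 1564 and 987 against 2956, 2672, 3207 and 3579 (log2 fold change -1.63 ± 0.23 (SE), adjusted p = 1.23e-04), and 3 of the 12 were also called lower after IOP elevation than in naïve libraries, where Pax6 stood at 5891 to 7301.

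Rod markers, which made up the highest sums of any non-microglial marker list, were called lower in 13 of 19 cases (median -1.05). This rested on few libraries: 1 was called without ONC replicate 1, 1 without ONC replicate 3 and 0 without IOP replicates 1 and 4. Müller glia markers were lower in 5 of 10 cases, bipolar cell markers in 3 of 12, astrocyte markers in 2 of 7, and cone markers in 2 of 10 with 1 higher (Gngt2, 1.12). The numbers lower without ONC replicate 1 were 3 for Müller glia, 1 for bipolar cells and 0 for astrocytes and cones. Leaving out IOP replicates 1 and 4 gave 2 for Müller glia and 0 for the other 3 lists. Gfap was at 130.2, 1319 and 419 against 2469, 866, 542 and 2283 and was not called (adjusted p = 0.127). Endothelial and pericyte markers were called lower in 1 of 14 cases and pigment epithelium markers in 1 of 12, shares below the 13.4% of all genes. Hemoglobin genes, of red blood cells, were lower in 4 of 5 cases, with Hba-a1 at 36.2, 641 and 9.36 against 1808, 2179, 1737 and 2263, and 0 were called without ONC replicate 1 or without ONC replicate 3. Of the 4 Y-linked genes limma called 0 in WT, and 1 had an unadjusted p under 0.05.

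Lens genes gave the 8 greatest fold changes of all genes tested. Of 20 tested, 18 were called lower after ONC and 0 higher, 17 without ONC replicate 1 and 13 without IOP replicates 1 and 4. The median log2 fold change was -7.54, and it was -6.67 with the 8 members that had no read in any ONC library set at 3 reads per library. Those 8 passed the count filter through the IOP libraries alone, which fixed their direction in advance. Cryaa, αA-crystallin, had normalized counts of 45.6, 0 and 1.17 after ONC, 92768, 23101, 15315 and 102542 after IOP elevation and 37.1 to 1144 in naïve libraries (adjusted p = 1.16e-05). Crygb, γB-crystallin, had no read after ONC and 8496, 1583, 1338 and 8928 after IOP elevation, at least 1389-fold lower. In the libraries labelled KO, 0 of the 20 genes were called between injuries (19 of 20 had an unadjusted p under 0.05 in WT), and their summed level was 1377 to 1740 after IOP elevation and 1730 to 2095 after ONC. A limma fit with the mean level of the lens markers as a covariate called 0 genes in either direction, with 2426 at an unadjusted p under 0.05. That covariate ran from 8.03 to 10.67 in the 4 IOP libraries and from 1.49 to 2.68 in the 3 ONC libraries. It separated the groups without overlap, so this fit cannot tell lens level and injury apart, and its count of 0 decides nothing.

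By the rule of the 10 highest fold changes, set among called genes with a mean of at least 100 and groups that did not overlap, the genes highest after ONC were Klrg2, Gm49342, B430305J03Rik, Cep55, Parpbp, Ecel1, Plbd2, Gcm2, Cxcl9 and Kif18b. Klrg2, a lectin-like receptor, had 301, 162 and 677 after ONC and 4.58, 0, 0 and 0 after IOP elevation (adjusted p = 2.83e-04), and with Plbd2 (10254, 7327 and 11249; 1240.3, 455, 146 and 202) it belongs to the co-varying set. Cep55 and Kif18b act in cell division, with Cep55 at 243, 145 and 292 against 11.9, 24.1, 1.89 and 0 (log2 fold change 5.31 ± 0.87 (SE), adjusted p = 4.65e-04). Ecel1, an endopeptidase that neurons induce after axon injury, had 79.2, 566 and 242 against 10.99, 20.8, 0 and 4.43 (log2 fold change 5.18 ± 1.14 (SE), adjusted p = 0.00401), and ONC replicate 2 was the highest. Gm49342, B430305J03Rik, Parpbp, Gcm2 and Cxcl9 lost their calls in 6 to 14 of 25 other settings.

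Lowest after ONC, beyond the lens lists, were Aldh3a1, Grifin, Lgsn, Ogn, Tlr5, Wnt7b, Lctl, Sfrp1, Srd5a2 and Cd163. Of these, Aldh3a1, Grifin, Lgsn, Wnt7b and Lctl were highest in IOP replicates 1 and 4, as were the summed lens markers. Aldh3a1, a crystallin-like dehydrogenase of the cornea, had no read in any ONC library and 1409, 426, 329 and 1522 after IOP elevation, at least 252-fold lower (adjusted p = 1.08e-04). Grifin and Lgsn, both known from lens, had no read after ONC and were at least 151-fold and 68.6-fold lower. Ogn, osteoglycin, had no read after ONC, 140.1, 166, 85.8 and 149.8 after IOP elevation and 1.86 to 199 in naïve libraries. Wnt7b, a WNT ligand, had no read after ONC and 211, 67.9, 33 and 136 after IOP elevation, and Sfrp1, a WNT inhibitor, had 1 read after ONC and 488 after IOP elevation.

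Between the libraries labelled KO the same comparison of ONC with IOP elevation called 436 genes (2.79%). Of the 3812 genes called in WT mice 3246 had the same sign there (85.2%, against 60.9% of the genes not called), 306 were also called with the same sign, and 1 was called with the opposite sign. Those 306 are 8.03% of the WT calls and 70.2% of the KO calls. Cst7 gave a log2 fold change of 2.80 ± 0.27 (SE), adjusted p = 5.88e-06 in KO, Lpl 2.17 ± 0.21 (SE), adjusted p = 5.88e-06, Irf7 2.23 ± 0.27 (SE), adjusted p = 1.19e-04 and Cfb 3.91 ± 0.41 (SE), adjusted p = 1.83e-05. In the libraries labelled KO the Y-linked sum was at most 169 in all 4 IOP pools and 2919 to 5001 in all 4 ONC pools, and 3 of the 4 genes were called. Sex and injury therefore cannot be told apart there, nor in the test between genotypes. By list, the libraries labelled KO gave 22 of 37 interferon genes higher, 16 of 33 disease-associated genes, 12 of 56 cell cycle genes and 8 of 51 lysosomal genes.

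The difference between genotypes, tested as an interaction, was called for 41 genes (0.262%), 38 with a more positive value in KO and 3 with a more negative one, of which 11 are lens markers and 1 is the Y-linked Ddx3y (14.54, adjusted p = 0.022), and 2321 genes had an unadjusted p under 0.05. The 41 also hold Grifin, Lgsn, Lctl, Aldh3a1 and Wnt7b, which are outside the lens list. Like those 11 markers, they were highest in WT IOP replicates 1 and 4. Cx3cr1, the reporter locus itself, had the lowest adjusted p: it was not called in WT (log2 fold change 0.03, adjusted p = 0.959), while KO libraries held 1079, 1233, 1067 and 952 after IOP elevation and 46130.3, 33812, 12869 and 22396 after ONC (interaction 4.55 ± 0.51 (SE), adjusted p = 1.92e-04). The reporter copies of each library are not known here. A difference in copies therefore cannot be told apart from injury in KO, nor from Spp1 genotype in the interaction. Tlr5 had 90.98, 158, 25.7 and 30.5 and 151, 129, 62.9 and 201 in KO after ONC and IOP elevation, and its interaction was 5.54 ± 0.82 (SE), adjusted p = 0.00261. Stmn2 (2.58 ± 0.46 (SE), adjusted p = 0.0113) and Lyve1 (3.79 ± 0.68 (SE), adjusted p = 0.0113) also differed between injuries by more in WT. The count of 41 was 3 without WT IOP replicates 1 and 4 and 1209 without WT ONC replicate 2. For genes outside the 41 a difference between genotypes was not shown, and none of the 37 interferon genes, 33 disease-associated genes or 23 cholesterol genes was called.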

How the data were processed

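GFP-positive cells were sorted from retinas that the study's methods describe as pooled, and RNA-seq libraries were made with a SMARTER kit and sequenced as paired 150-base reads. The study's methods name salmon for mapping reads and DESeq2 for differential expression, and the submitters' processing notes list STAR, DESeq2 and GRCm38. The authors deposited 1 table of normalized counts, a signal that in the 11 WT libraries equals whole reads over 1 factor per library, for 35825 gene identifiers, of which 34732 were paired with a symbol through GENCODE M21. Kit strand handling is not given in the sources used here. Genotype, injury and replicate came from the labels, and the times after injury from the paper's legends.

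Each gene was fitted on the log2 scale, after adding 1 normalized count, in limma 3.58.1 (R 4.3.3, moderated with a mean-variance trend). The model held 23 libraries in 6 groups, and p-values were adjusted by Benjamini-Hochberg over 15655 genes. Sums of marker lists were compared with exact permutation tests over 35 splits, two-sided. edgeR 4.0.16 and DESeq2 1.42.0 were run on recovered reads of the 11 WT libraries. Tested on simulated data for this comparison (15655 genes, 200 changed), limma called 71 of 100 genes changed by 2 on the log2 scale and 24 of 100 changed by 1, with 8 false calls. On the same data edgeR called 56 and 14 with 5 false calls, and DESeq2 82 and 36 with 72. Genes were drawn independently and without shifts of whole libraries, so these numbers do not give the error rate in the real libraries. The rule for named genes took the 10 called genes at each end with a mean of at least 100 normalized counts in the higher group and groups that did not overlap (pseudogenes and lens markers were described as lists), up to 6 called members of each list with the lowest adjusted p or, with none called, the 2 with the highest mean, and a fixed set that includes Spp1 and the usual markers of state and cell type. The comparison, the lists and the named genes were chosen with earlier results of these data known. Promoter sequences are RefSeq's (GRCm38.p6), matched by symbol, with 1 promoter used per gene, and a promoter was found for 27 of 37 interferon, 16 of 23 cholesterol and 44 of 56 cell cycle genes. Some members of the lists are counted but not reported here by name.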

Additional observations from a re-analysis of the deposited data

Results flagged for a closer look

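In 17 of 192 values checked, 1 of the 4 WT IOP libraries lay far from the other 3, where chance alone gives about 1 in 20. Replicate 2 was the highest for the border macrophage markers Pf4, at 6807 normalized counts, and Lyve1, at 2368, and for Msr1 at 5868, Gpnmb at 5809, Cfp at 3158, H2-Q7 at 1735 and Ccl5 at 711.7. It was the lowest for Bace1, at 1492. Replicate 3 was the highest for Irf7 at 4936, Zbp1 at 844.9, C3 at 652.5, Parpbp at 24.5 and the sum of cornea and iris markers at 9886, and the lowest for Gabarap at 4836. Replicate 1 was the highest for Cxcl9 at 35.7 and Klrg2 at 4.58, and replicate 4 for Gm49342 at 40.8.

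For 16 genes given in the text, the difference between ONC and IOP elevation itself differed between genotypes (interaction term of limma, adjusted p under 0.05). The KO difference minus the WT difference, on the log2 scale, was 14.54 for Ddx3y, 12.09 for Cryaa, 9.93 for Crygb, 9.70 for Aldh3a1, 8.61 for Grifin, 7.60 for Lgsn, 7.34 for Wnt7b, 6.40 for Lctl, 5.54 for Tlr5, 5.29 for Gipc2, 5.16 for Gabrb1, 4.55 for Cx3cr1, 3.79 for Lyve1, 2.58 for Stmn2, 2.48 for Crym and 1.69 for mt-Nd6. Cx3cr1 was not called between the WT groups (0.03), and its KO difference was 4.58, with the reporter copies of each library not known.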

How the results depend on the processing

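The number of genes called between the WT groups depended strongly on which libraries and covariates were used; the cause was not tested. Against 1713 higher and 2099 lower, upper-quartile rescaling gave 1072 higher and 2934 lower, the 7 libraries alone 537 and 292, a rod marker covariate 202 and 257, a lens marker covariate 0 and 0, and edgeR 1247 and 884. The lens covariate separated the WT groups without overlap, so that fit cannot tell lens level and injury apart. Alternatives chosen after seeing the data gave 322 and 432 without WT IOP replicates 1 and 4 together, 332 and 3655 with libraries centred on microglia markers, and 987 and 954 with the co-varying set as a covariate. Leaving out 1 library at a time gave 589 to 2506 higher and 737 to 3396 lower, both lowest without WT ONC replicate 1 and highest without WT ONC replicate 2, with 832 and 1205 without WT ONC replicate 3 and 944 and 1229 without WT IOP replicate 4. For the difference between genotypes, 41 genes were called; with a mean of 50 or more there were 26, after quantile normalization 22, with the lens covariate 0, without WT IOP replicates 1 and 4 together 3, centred on microglia markers 25, and without 1 library 27 to 1209. In their deviations from the group means, same-numbered ONC and IOP libraries correlated at -0.09, -0.21 and 0.06, and other pairs at -0.12 to 0.20. So few libraries cannot decide whether the numbers pair the samples. A fit with a replicate block gave 1343 higher, 1733 lower and 31 between genotypes.

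Directions turned for lists with a median above 0.58 in size, and for called genes, in the following cases. Centred on microglia markers, the list medians were -0.1062 for complement, -0.0741 for Toll-like receptors, -0.1257 for cholesterol efflux, -0.1 for the ribosome and -0.0234 for microglia markers, and the log2 fold changes were -0.0105 for Atp5c1, -0.1018 for Hspa8, -0.0504 for Map1lc3b, -0.0281 for Psma1 and -0.0604 for St13. With the co-varying set as a covariate the dissociation list median was -0.1879. Of the lists with smaller medians, 15 turned when centred on microglia markers, among them homeostatic genes (-0.28) and MHC class II (-0.20), and 4 after quantile normalization. With the lens covariate the values were -0.2747 for Adora1, -1.3513 for Chuk, 1.2816 for Cryaa, 0.1022 for Crym, -2.7176 for Parpbp, 4.5291 for Srd5a2 and 1.3178 for Wnt7b. The remaining alternatives, among them removal of the length trend and of the co-varying genes (both also chosen after seeing the data), kept the gene counts within 1.5 times. Calls of named genes were lost, without a change of direction, for 141 with the rod covariate, 130 without WT IOP replicates 1 and 4 together, 116 with the 7 libraries alone and 97 without WT ONC replicate 1, and for 243 with the lens covariate. For the lens covariate the losses and turned signs follow from its separation of the WT groups and decide nothing about them.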
